A study of Mus musculus with 54 samples.

Results

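Linezolid is an oxazolidinone antibiotic that binds the bacterial ribosome and also slows the ribosome of mitochondria, so treated animal cells make less of the respiratory chain subunits that the mitochondrial genome encodes. T helper 17 (Th17) cells are CD4+ T cells that secrete interleukin-17 and arise from naive cells under TGF-β and IL-6, usually over several rounds of division. During these divisions a T cell loses its naive surface receptors and builds up its effector genes, its translation machinery and its mitochondria. The question addressed here is how RNA levels moved with division number in Th17 cells that were kept in linezolid throughout.

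The linezolid course comprised 18 of the 54 libraries of the series, all those labelled Linezolid, and after 3 technical replicates were averaged it was 6 of 18 samples. CD4+ CD25- T cells of C57BL/6 mice, from spleens and lymph nodes, were labelled with CellTrace Violet, a dye diluted at each division, and activated with αCD3e and αCD28. All cultures held rhTGF-β1, rmIL-6, rmIL-1β, αIFN-γ and αIL-4, and 100 µM linezolid, 60 mM Arg C (unit as labelled, not checked) or the vehicle DMSO was present for 96 h. Live CD4+ cells were then sorted by dye peak into cycle 2 (1 division), cycle 3 (2 divisions) and cycle 4 (3 or more divisions), in experiments 1 and 2. Neither the animals behind each experiment nor undivided cells are described in the labels, and all compared fractions were harvested at the same time, so cycle is a sorted fraction of 1 culture and not a time point.

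The 6 linezolid samples held 27.7 M to 36.9 M reads each (M, mega), from libraries of 9.0 M to 12.5 M, and their technical replicates varied 1.05 to 1.11 times as much as counting alone (chi-square over degrees of freedom). Values are RPKM, reads per kilobase of gene and per M reads of the library. T helper markers were abundant (summed level 1485 to 1957 RPKM over 10 markers), the summed level of 10 Th17 markers was 31.9 to 75.4 RPKM, and B cell, neutrophil and erythroid marker sums did not exceed 2.26 RPKM. The experiments differed in sex-linked RNA: Xist was listed at 0 in the linezolid samples of experiment 1 and at 11.8 to 14.9 RPKM in experiment 2, and the Y-linked Ddx3y was at 9.08 to 10.9 RPKM in experiment 1 and listed at 0 in experiment 2. Each cycle comparison was therefore read within experiment, with experiment as a block.

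Of 10229 genes tested across the 6 linezolid samples, 1997 were higher in cycle 4 than in cycle 2 and 2859 were lower, at a Benjamini-Hochberg adjusted p under 0.05 in limma. Median-ratio scaling called 2460 higher and 2512 lower, so the excess of falls rests on the RPKM scale. The RPKM counts are 19.5% higher and 27.9% lower, 47.5% in all, and they are the background against which counts in gene lists are read. Changes were mostly small: 54 genes rose and 216 fell at least 2-fold on the log2(RPKM + 1) scale, and the median over all tested genes was -0.05. In all 4856 called genes the 2 experiments had the same sign. This is a description only, since a gene whose 2 experiments disagree in sign can hardly be called. Across genes, which are not independent replicates, the log2 changes of the 2 experiments correlated with r = 0.82. These are bulk samples, in which fewer cells of a type and less RNA per cell cannot be told apart. The fit takes 3 sorted fractions of a culture as independent and has 2 residual degrees of freedom, so errors can be too small. Without the experiment block it called 135 genes higher and 92 lower. The linear trend over cycles 2, 3 and 4 called 1837 genes higher (18%) and 2564 lower (25.1%).

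**Figure D1:**
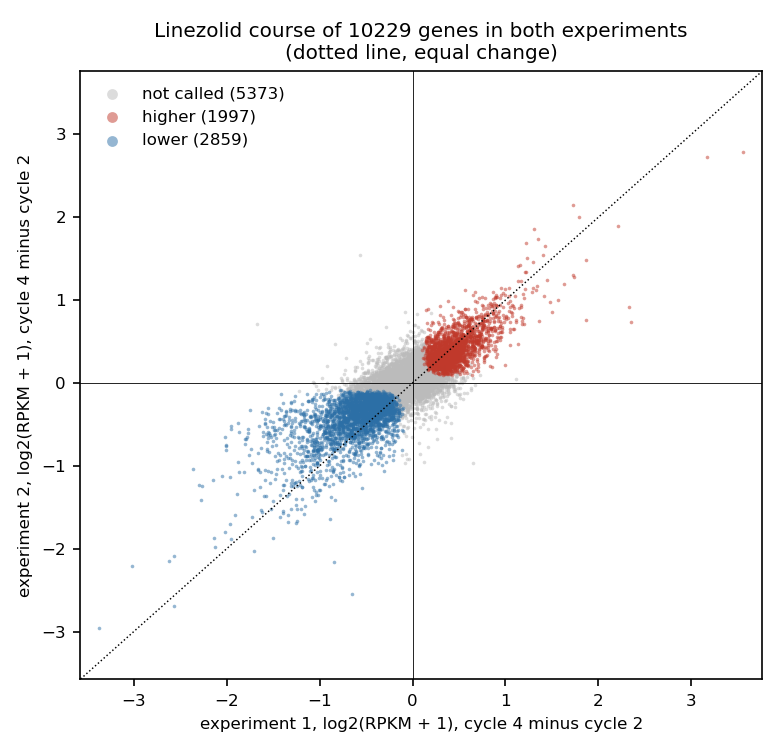
Change from cycle 2 to cycle 4 on the log2(RPKM + 1) scale in linezolid, experiment 1 on the x axis and experiment 2 on the y axis, 1 point per tested gene, coloured by the call. Called genes, 1997 higher and 2859 lower, lie in the 2 quadrants of equal sign, as the call all but requires. The points farthest up at the right are Mt2 and Mt1.

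Much of the course was complete by the second division. Cycle 3 against cycle 2 called 892 genes higher (8.72%) and 1770 lower (17.3%). The excess of falls depended on scaling, since median-ratio scaling called 1332 higher and 1317 lower. Without cycle 3 of experiment 1 the counts were 103 and 330, and without cycle 3 of experiment 2 they were 191 and 466. At cycle 3 the median gene called lower in cycle 4 had covered 73.6% of its change, and the median gene called higher had covered 58.2%. Of the called genes, 80.3% of those higher and 69.5% of those lower moved stepwise over the 3 cycles in both experiments, a description only, since a called gene already had 1 direction from cycle 2 to cycle 4. The last step, cycle 4 against cycle 3, called no gene higher and 3 lower (0.0293%), among them Ms4a4b and H2-Q7. In that step 1842 genes had an unadjusted p under 0.05 and 32.9% of genes moved in opposite directions in the 2 experiments, compared with 18% in the step before. Leaving out linezolid cycle 2 of experiment 1 raised the last step to 594 genes higher and 685 lower, and leaving out cycle 4 of experiment 2 raised it to 693 and 1016.

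The metallothioneins rose more than any other named gene. Mt1 and Mt2 encode small cysteine-rich proteins that bind zinc and copper, and their promoters carry metal response elements bound by the zinc-sensing factor MTF-1. In experiment 1 Mt1 was at 10.3, 47.6 and 101 RPKM in cycles 2, 3 and 4, and in experiment 2 at 8.06, 31.5 and 58.8 RPKM. Mt2 was at 8.38, 46.4 and 110 RPKM in experiment 1 and at 6.93, 27.4 and 53.5 RPKM in experiment 2. Both genes climbed at each division, with no overlap between cycles. The log2 change from cycle 2 to cycle 4 was 2.95 ± 0.10 (SE, n = 2 experiments, adjusted p = 6.5e-05) for Mt1 and 3.17 ± 0.16 (SE, adjusted p = 0.00014) for Mt2.

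In DMSO the same genes were high at every cycle. Mt1 was at 131, 114 and 102 RPKM in experiment 1 and at 99.2, 118 and 151 RPKM in experiment 2 over cycles 2, 3 and 4. The linezolid samples thus started far below DMSO after 1 division and reached its range in cycle 4 of experiment 1, while cycle 4 of experiment 2 was still lower than its DMSO sample. The difference between the 2 courses was 2.82 ± 0.34 (log2, SE, adjusted p = 0.0053) for Mt1 and 2.88 ± 0.38 (SE, adjusted p = 0.0053) for Mt2, higher in linezolid in both experiments. Of 43 named genes called different between these courses, 26 lost the call without linezolid cycle 4 of experiment 1 and 20 without cycle 2 of experiment 1, but Mt1 and Mt2 did not. With Arg C, Mt1 went from 21.6 to 119 RPKM in experiment 1 and from 16.5 to 78.5 RPKM in experiment 2.

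Mt1 and Mt2 are neighbours on mouse chromosome 8, and their promoter windows (RefSeq, build GRCm38.p6, 250 bases before to 50 after the start, plus strand) are shown because these 2 genes led the rises. Capitals mark the letters TGCACNC or TGCGCNC of the metal response element, or their reverse complement, a search added after the values were seen. The Mt1 window is chr8:94178839-94179138 and the Mt2 window is chr8:94172368-94172667.
Mt1: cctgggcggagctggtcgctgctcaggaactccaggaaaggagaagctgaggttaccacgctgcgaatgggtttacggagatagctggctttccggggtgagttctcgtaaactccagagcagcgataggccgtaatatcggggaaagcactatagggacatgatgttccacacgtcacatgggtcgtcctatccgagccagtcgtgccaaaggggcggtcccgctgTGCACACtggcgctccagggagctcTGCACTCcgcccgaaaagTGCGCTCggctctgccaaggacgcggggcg
Mt2: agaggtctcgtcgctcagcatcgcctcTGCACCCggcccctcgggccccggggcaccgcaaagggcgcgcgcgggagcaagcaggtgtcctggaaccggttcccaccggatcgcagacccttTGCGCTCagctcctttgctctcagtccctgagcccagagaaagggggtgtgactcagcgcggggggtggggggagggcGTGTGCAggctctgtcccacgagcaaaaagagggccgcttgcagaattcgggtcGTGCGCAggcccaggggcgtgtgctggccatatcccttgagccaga
The Mt1 window held 3 matches and the Mt2 window 4. These letters are common: 36.2% of the 9996 windows of tested genes held at least 1, as did 37.6% of windows of genes called higher, so a match describes the sequence only.

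The other largest rises were in cytokine, surface and effector genes. Il24, a cytokine of the IL-10 family, went from 1.62 over 4.59 to 11.1 RPKM in experiment 1 and from 1.85 over 5.08 to 9.53 RPKM in experiment 2 (log2 change 2.05 ± 0.11, SE, adjusted p = 0.00014). Pdpn, which encodes the surface glycoprotein podoplanin, rose by 1.94 ± 0.13 (log2, SE) and Procr, the endothelial protein C receptor, by 1.90 ± 0.09. Timp1, an inhibitor of matrix metalloproteinases, rose from 70.2 to 258 RPKM in experiment 1 and from 53.4 to 151 RPKM in experiment 2. Cldnd1, a claudin-domain protein, rose by 1.59 ± 0.12 (log2, SE), and Cyp1a1, a target of the aryl hydrocarbon receptor, by 1.54 ± 0.10. All 6 of these genes rose stepwise in both experiments. In DMSO their change from cycle 2 to cycle 4 was also upward (log2 1.05 for Il24, 1.68 for Pdpn, 1.70 for Procr, 0.84 for Timp1, 1.32 for Cldnd1 and 0.96 for Cyp1a1), and of the 6 only Timp1 had a course that differed from DMSO (difference 0.83 ± 0.20, SE, adjusted p = 0.035, and 0.085 with median-ratio scaling).

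Lars2, the mitochondrial leucyl-tRNA synthetase, was called higher but did not rise stepwise. It was at 5.43, 79.7 and 31.8 RPKM in cycles 2, 3 and 4 of experiment 1 and at 6.04, 27.6 and 10.7 RPKM in experiment 2. Cycle 3 was highest in both experiments, the linear trend was not called (adjusted p = 0.17), and in DMSO Lars2 was at 5.28 to 25.4 RPKM with its highest value in cycle 4 of experiment 1.

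**Figure D2:**
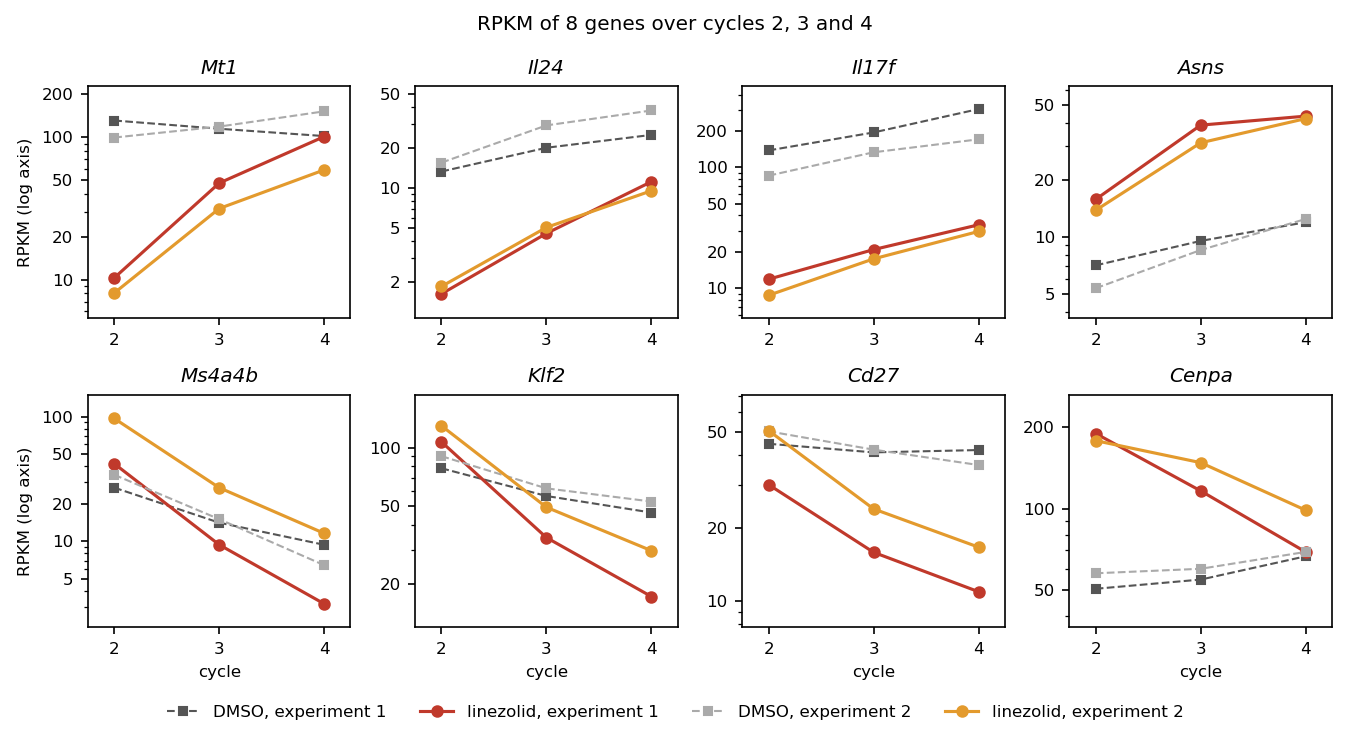
RPKM on a log axis against cycle for 8 genes, linezolid as filled circles with solid lines and DMSO as squares with dashed lines, 1 line per experiment. Mt1 rises from 10.3 and 8.06 RPKM toward the DMSO values, Il24, Il17f and Asns rise in both linezolid and DMSO, and Ms4a4b, Klf2, Cd27 and Cenpa fall in linezolid.

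Th17 cytokine genes rose with division, from a low level. Of 11 tested genes of this list 7 were higher in cycle 4 and 1 was lower, with a median log2 change of 0.70. Il17f, which encodes one of the 2 signature interleukin-17 chains, was at 11.9, 20.9 and 33.5 RPKM over cycles 2, 3 and 4 of experiment 1 and at 8.73, 17.5 and 29.5 RPKM in experiment 2 (log2 change 1.53 ± 0.08, SE, adjusted p = 0.00014). Il17a was at 2.21, 4.32 and 6.55 RPKM in experiment 1 and at 1.91, 3.68 and 7.28 RPKM in experiment 2 (1.37 ± 0.11, SE, adjusted p = 0.00033). Both genes also rose with division in DMSO, where Il17f went from 138 to 304 RPKM and from 85.3 to 171 RPKM and Il17a from 27.0 to 64.5 RPKM and from 14.9 to 36.4 RPKM. Their linezolid and DMSO courses were not called different: the difference was 0.47 ± 0.23 (log2, SE, adjusted p = 0.25) for Il17f and 0.14 ± 0.28 (SE, adjusted p = 0.80) for Il17a. Lta, encoding lymphotoxin alpha, rose by 1.04 ± 0.07 (log2, SE) and more than in DMSO (difference 0.62 ± 0.15, SE, adjusted p = 0.038, and 0.079 with median-ratio scaling). Il10 stayed between 0.624 and 1.99 RPKM and was not called.

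Of 17 transcription factors of the Th17 programme 5 were higher (29.4%) and 6 lower (35.3%). These shares are not far from the 19.5% and 27.9% of all tested genes. Rora, a nuclear receptor that promotes the Th17 fate, rose by 0.60 ± 0.09 (log2, SE, adjusted p = 0.0026). Ets1, a factor that restrains Th17 differentiation, fell from 155 to 89.0 RPKM in experiment 1 and from 195 to 117 RPKM in experiment 2. Junb, a Th17 AP-1 factor, fell between cycles 2 and 3 and then stayed level, with a change of -0.38 ± 0.06 (log2, SE) by cycle 4. Among 18 tested interleukin receptor genes 2 were higher (11.1%) and 9 lower (50%). Il12rb1, the chain shared by the IL-12 and IL-23 receptors, rose by 1.19 ± 0.10 (log2, SE), more than in DMSO (difference 0.78 ± 0.14, SE, adjusted p = 0.012). Il10ra and Il18r1 fell by 1.31 ± 0.09 and 1.01 ± 0.08 on the log2 scale, and Il2ra, at 47.1 to 75.2 RPKM, was not called.

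Genes of naive and resting T cells fell from cycle 2 to cycle 4. Of 22 tested genes 18 were lower in cycle 4 and none higher, with a median log2 change of -0.82, and 1 of the 22 was called lower from cycle 3 to cycle 4. Klf2, a factor of T cell quiescence that drives S1pr1, was at 107, 34.6 and 17.2 RPKM over cycles 2, 3 and 4 of experiment 1 and at 129, 49.4 and 29.6 RPKM in experiment 2. No 2 cycles overlapped, and the log2 change was -2.33 ± 0.11 (SE, adjusted p = 0.00013). In DMSO the fall was smaller, from 78.3 to 46.4 RPKM and from 90.3 to 52.9 RPKM. The courses of Klf2 differed by -1.58 ± 0.19 (log2, SE, adjusted p = 0.0053). Tcf7, the factor TCF-1 of stem-like T cells, fell from 720 to 356 RPKM and from 749 to 377 RPKM, and Cd27, a costimulatory receptor, from 30.2 to 10.9 RPKM and from 50.5 to 16.6 RPKM. Of these 2 genes only Cd27 had a course called different from DMSO (-1.20 ± 0.27, SE, adjusted p = 0.026).

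The largest fall of any named gene was in Ms4a4b, a tetraspanning membrane protein of naive T cells. It was at 42, 9.40 and 3.15 RPKM in experiment 1 and at 97.0, 27.0 and 11.6 RPKM in experiment 2, a log2 change of -3.17 ± 0.10 (SE, adjusted p = 5e-05). It was higher in experiment 2 than in experiment 1 at each cycle, so cycles 3 and 4 overlap across the experiments. Cd7, a T cell surface glycoprotein, fell by 2.63 ± 0.11 on the log2 scale. Dapl1 fell by 1.83 ± 0.10 and Igsf23 by 1.86 ± 0.10 on this scale. Pglyrp1, a peptidoglycan recognition protein, fell by 2.38 ± 0.13 on this scale. Clec2i, a C-type lectin, fell by 1.85 ± 0.19. Ms4a4b, Igsf23 and Dapl1 fell in DMSO too, where Clec2i was at -0.93 without a call, and the courses of these 4 genes were not called different from DMSO, while those of Cd7 (-0.90 ± 0.21, SE, adjusted p = 0.033) and Pglyrp1 (-1.15 ± 0.30, SE, adjusted p = 0.048) were. Both of these calls are fragile: Cd7 lost it with limma-voom (adjusted p = 0.062) and without any 1 of the cycle 2 and cycle 4 samples (0.052 to 0.12), and Pglyrp1 with a pseudocount of 0.1 (0.070), without the variance trend (0.052), and without cycle 4 of experiment 1 (0.21) among other samples.

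Other surface and signalling lists also fell. None of 20 tested chemokine receptor and homing genes was higher and 12 were lower, among them S1pr1, the receptor for egress from lymph nodes (log2 change -1.02 ± 0.07, SE), and Itga4, an integrin chain (-1.47 ± 0.09, SE). Costimulatory and checkpoint receptors had 10 of 14 lower and none higher. Lag3, an inhibitory receptor for MHC class II, fell from 135 to 65.9 RPKM and from 110 to 56.0 RPKM, and Tnfrsf9, encoding 4-1BB, from 8.75 to 4.79 RPKM and from 18.7 to 9.71 RPKM. Of 16 genes of the T cell receptor complex 10 were lower and 1 higher, and Cd247, the zeta chain, changed by -0.75 ± 0.06 (log2, SE) against -0.06 in DMSO (difference -0.69 ± 0.13, SE, adjusted p = 0.012). Of 21 activation and immediate early genes 12 were lower, such as Jund (-1.18 ± 0.08, SE). The 3 that were higher were the NR4A receptors, and Nr4a1 rose from 38.7 to 64.0 RPKM and from 30.3 to 43.7 RPKM while it fell in DMSO from 36.9 to 21.6 RPKM and from 38.2 to 19.6 RPKM. The 2 courses of Nr4a1 differed by 1.45 ± 0.19 (log2, SE, adjusted p = 0.0053). Cd44, a marker of activated T cells, was at 27.4 to 42.3 RPKM and was not called.

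MHC and interferon genes were lower after more divisions. Of 15 tested MHC class I and II genes 13 were lower and 1 was higher. Summed over 15 macrophage, monocyte and dendritic cell markers the level was 8.78 to 15.2 RPKM. Over 10 B cell markers it was 0.324 to 2.26 RPKM. Both sums were highest in cycle 2 of both experiments. In experiment 1, however, the first sum was nearly the same in cycle 2 (15.2 RPKM) and cycle 4 (15.1 RPKM). Only 2 of the 15 and 1 of the 10 markers averaged at least 0.5 RPKM. The part of such cells in the MHC falls was not tested. H2-K1, a classical class I heavy chain, was at 523, 321 and 249 RPKM in experiment 1 and at 549, 377 and 310 RPKM in experiment 2. H2-Q7, a class Ib gene, was at 86.3, 43 and 20.5 RPKM in experiment 1 and at 86.7, 44.6 and 24.3 RPKM in experiment 2, and fell further than in DMSO (difference -1.0 ± 0.18, log2, SE, adjusted p = 0.012). H2-Q6 fell by 2.61 ± 0.17 on the log2 scale. H2-Q6 and H2-Q7 are near copies, and how reads were divided between them is not given in the sources used here, so their separate values are uncertain. Of 18 interferon response genes 14 were lower and 1 higher, with Usp18 at -1.11 ± 0.09, Gbp4 at -0.96 ± 0.08 and the immunoproteasome subunit Psmb9 at -0.72 ± 0.08 (log2, SE).

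Genes of other T helper fates fell as well, most of them from low levels. Of 10 tested Th1 and cytotoxic genes 8 were lower and 1 was higher. Tbx21, encoding the Th1 factor T-bet, went from 2.65 to 0.822 RPKM and from 2.38 to 0.849 RPKM, Prf1, encoding perforin, from 1.70 to 0.0942 RPKM and from 2.21 to 0.354 RPKM, and Hopx from 5.94 to 1.94 RPKM and from 8.09 to 2.84 RPKM. Of 9 regulatory T cell and Th2 genes 7 were lower and none higher. Gata3, the Th2 factor, was at 9.68, 5.38 and 2.78 RPKM in experiment 1 and at 13.8, 7.02 and 4.48 RPKM in experiment 2, and it fell alike in DMSO by value (log2 -1.35, against -1.46 in linezolid). Foxp3, the regulatory T cell factor, was at 0.400 to 1.65 RPKM and fell by 0.63 ± 0.14 on the log2 scale.

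**Figure D3:**
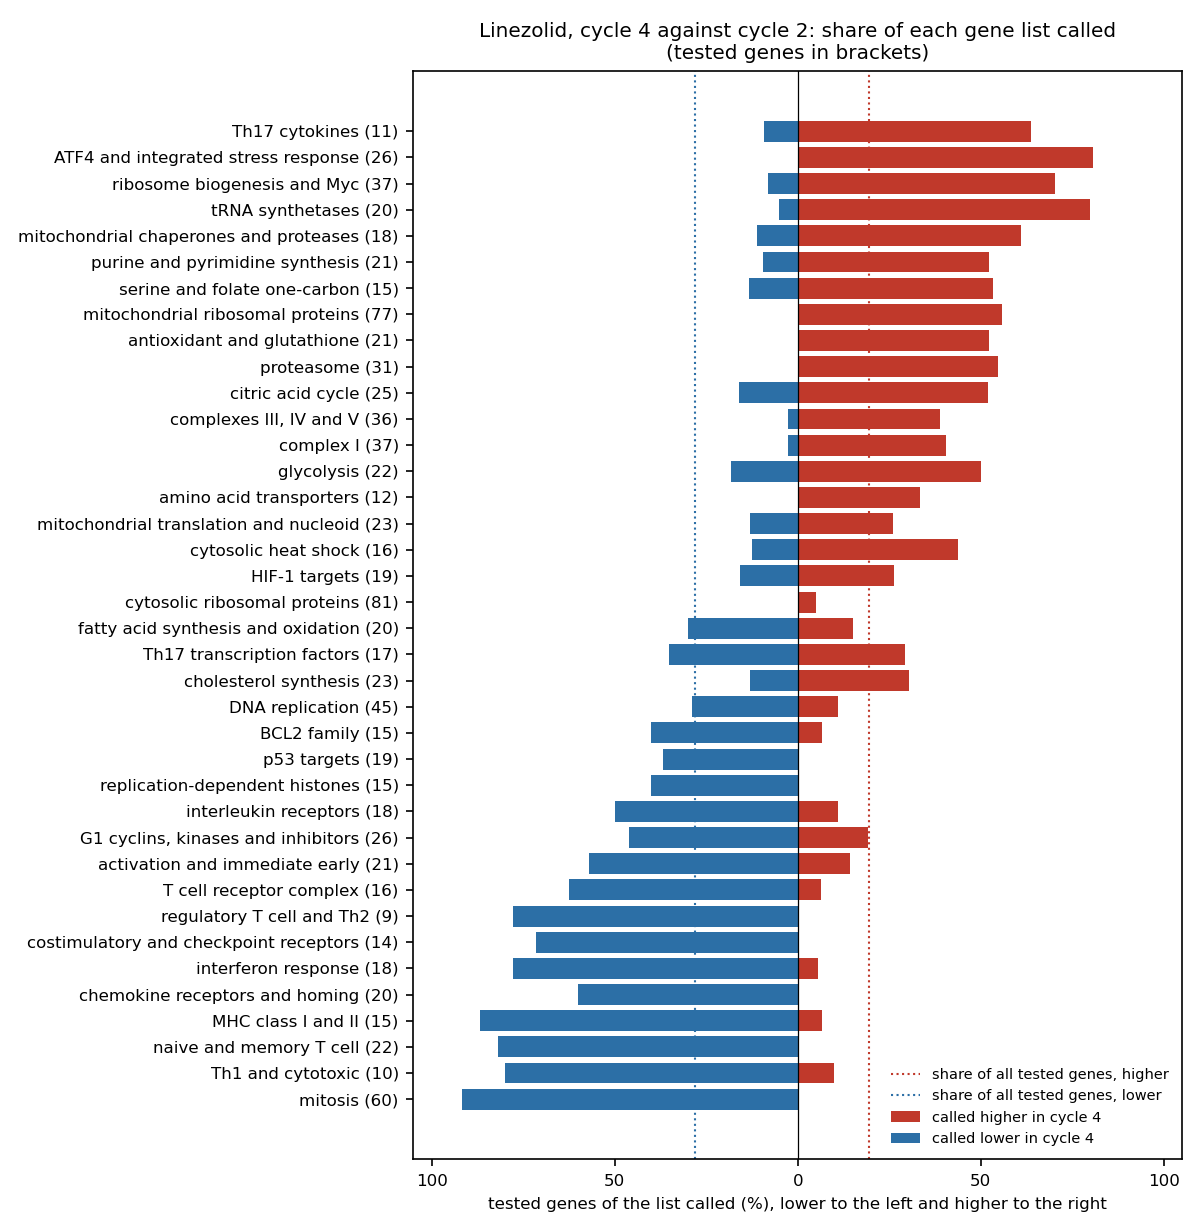
Share (%) of the tested genes of each list called higher (right) or lower (left) in cycle 4 against cycle 2 in linezolid, lists ordered by median log2 change and dotted lines at 19.5% higher and 27.9% lower, the shares of all tested genes. Lists with fewer than 9 tested genes are left out. ATF4 targets, tRNA synthetases and ribosome biogenesis are at the top with mostly higher genes, and mitosis, naive T cell and MHC genes at the bottom with mostly lower genes.

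Targets of ATF4 rose together. ATF4, the effector of the integrated stress response, is translated when eIF2α is phosphorylated, and induces genes of amino acid supply. It is known to be engaged when mitochondrial translation or respiration is blocked. Of 26 tested genes of this list 21 were higher in cycle 4 and none lower, 80.8% against 19.5% of all tested genes, with a median log2 change of 0.53. Asns, asparagine synthetase, was at 15.8, 38.9 and 43.4 RPKM over cycles 2, 3 and 4 of experiment 1 and at 13.8, 31.4 and 42.1 RPKM in experiment 2 (log2 change 1.48 ± 0.08, SE, adjusted p = 0.00014). Most of its rise fell between cycles 2 and 3. Atf4 itself went from 170 to 260 RPKM and from 146 to 225 RPKM, and its target Ddit3, encoding CHOP, from 32.5 to 45.8 RPKM and from 31.1 to 43.9 RPKM. Nupr1 rose by 1.38 ± 0.08 and Eif4ebp1, an inhibitor of cap-dependent translation, by 1.08 ± 0.06 (log2, SE).

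In DMSO 10 genes of the ATF4 list were called higher in cycle 4 than in cycle 2, against 4.45% of the 11004 genes tested there (7.67% in either direction, 3.22% lower), with a median log2 change of 0.20. Of 29 members tested in the comparison of the 2 courses 7 were higher in linezolid, against 2.05% of all genes. This count was 4 with median-ratio scaling, 3 without linezolid cycle 2 of experiment 2, 1 without cycle 2 of experiment 1 and 0 without cycle 4 of experiment 1. Among them Eif4ebp1 differed by 0.87 ± 0.16 (SE, adjusted p = 0.012), Slc3a2, the heavy chain of amino acid transporters, by 0.79 ± 0.17 (adjusted p = 0.023), Asns by 0.59 ± 0.13 (adjusted p = 0.025), Atf4 by 0.57 ± 0.15 (adjusted p = 0.048) and Ddit3 by 0.54 ± 0.14 (adjusted p = 0.043), all on the log2 scale. With median-ratio scaling Atf4, Ddit3 and Slc3a2 lost the call (adjusted p = 0.13, 0.093 and 0.057). Atf4 in DMSO showed no such course, at 217, 219 and 208 RPKM in experiment 1 and at 217, 239 and 241 RPKM in experiment 2. Of 20 tRNA synthetase genes 16 were higher and 1 lower, with Tars at 0.98 ± 0.07, Eprs at 0.85 ± 0.07 and Gars at 0.83 ± 0.06 (log2, SE). Of 15 serine and one-carbon genes, several of which are also in the ATF4 list, 8 were higher and 2 lower, and Phgdh, the first enzyme of serine synthesis, rose by 0.67 ± 0.08 (log2, SE).

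Genes of the mitochondrial ribosome and of mitochondrial protein folding rose by smaller amounts. Of 77 mitochondrial ribosomal protein genes 43 were higher (55.8%, against 19.5% of all tested genes) and none lower. Their median log2 change was 0.27, and 68 of 77 were above 0 in both experiments. In DMSO the median of this list was 0.14, with 7 of 77 called higher, against 4.45% of all genes. With Arg C the median was 0.35. The course was called higher than in DMSO for 5 of 77, against 2.05% of all genes. Mrpl53, of the large subunit, was at 33.1, 44.3 and 54.8 RPKM in experiment 1 and at 26.7, 39.2 and 47.4 RPKM in experiment 2, and Mrps27, of the small subunit, rose from 4.77 to 8.01 RPKM and from 4.84 to 9.16 RPKM. Of 23 mitochondrial translation factor and nucleoid genes 6 were higher (26.1%, against 19.5% of all tested genes) and 3 lower, and among the 6 the elongation factors Tufm and Gfm1 each rose by 0.49 (log2, SE 0.08 and 0.09). Of 18 mitochondrial chaperone and protease genes 11 were higher (61.1%) and 2 lower (11.1%), with a median log2 change of 0.30. The median of these genes was 0.17 in DMSO and 0.50 with Arg C, and 2 of 18 had a course called higher than in DMSO. Hspa9, the mitochondrial HSP70, was at 42.1, 79.6 and 93.6 RPKM in experiment 1 and at 39.2, 77.5 and 106 RPKM in experiment 2, and rose more than in DMSO (difference 0.94 ± 0.18, log2, SE, adjusted p = 0.014). Hspd1, the chaperonin HSP60, rose by 0.89 ± 0.07 and its partner Hspe1 by 0.49 ± 0.06 (log2, SE).

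Respiratory chain genes of the nucleus moved the same way, with 15 of 37 complex I genes and 14 of 36 genes of complexes III, IV and V higher and 1 lower in each. Ndufa12 (complex I) went from 46.8 to 78.9 RPKM and from 49.0 to 78.3 RPKM, Uqcrq (complex III) from 26.1 to 47.8 RPKM and from 24.5 to 38.4 RPKM, and Atp5g1 (ATP synthase) from 17.5 to 40.7 RPKM and from 18.4 to 31.6 RPKM. In DMSO the change of each of these 3 genes was at most 0.08 on the log2 scale, and the courses differed by 0.62 ± 0.10 (adjusted p = 0.0086) for Ndufa12, 0.68 ± 0.11 (adjusted p = 0.0083) for Uqcrq and 0.90 ± 0.16 (adjusted p = 0.012) for Atp5g1 (log2, SE). The counts rest in part on cycle 2 of experiment 1: without that sample 7 complex I genes and 8 genes of complexes III, IV and V were higher. Without cycle 4 of experiment 2 these counts were 23 and 25. Against DMSO, the course was called higher in linezolid for 3 of 37 complex I genes and for 3 of 36 genes of complexes III, IV and V. None was called lower, and 2.05% of all genes were called higher. The median log2 change of the 2 lists was 0.13 and 0.11 in DMSO, and 0.19 for both in linezolid. From the mitochondrial genome only the 2 ribosomal RNAs had values. Rnr2, the 16S rRNA, fell from 243 to 160 RPKM and from 332 to 253 RPKM (log2 change -0.50 ± 0.07, SE, adjusted p = 0.0019), and Rnr1, the 12S rRNA, at 561 to 767 RPKM, was not called.

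Growth genes rose while Myc did not. Of 37 ribosome biogenesis and Myc-related genes 26 were higher (70.3%, against 19.5% of all tested genes) and 3 lower, with a median log2 change of 0.47. In DMSO the list also rose, with 11 of 39 higher, against 4.45% of all genes, and a median of 0.28. With Arg C the median was 0.35. Against the DMSO course 3 of 39 were higher in linezolid and 1 lower, compared with 2.05% and 3.34% of all genes. Srm, spermidine synthase and a Myc target, was at 3.48, 7.42 and 14.0 RPKM over cycles 2, 3 and 4 of experiment 1 and at 3.96, 7.26 and 11.0 RPKM in experiment 2. It rose more than in DMSO, by 1.12 ± 0.15 (log2, SE, adjusted p = 0.0053). Ddx21, a nucleolar helicase, rose by 0.74 ± 0.08 and Nme1, a nucleoside diphosphate kinase, by 1.23 ± 0.09 (log2, SE). Myc was at 8.26, 7.75 and 7.86 RPKM in experiment 1 and at 11.7, 9.64 and 9.17 RPKM in experiment 2 and was not called (-0.19 ± 0.09, SE, adjusted p = 0.12). Of 81 cytosolic ribosomal protein genes 4 were higher and none lower, but leaving out cycle 4 of experiment 2 made 69 higher, and leaving out cycle 4 of experiment 1 made 10 higher and 14 lower. The share of reads in these genes rose over cycles 2, 3 and 4 from 24.6% over 25.5% to 27.5% in experiment 1 and was 21.0%, 22% and 21.0% in experiment 2. Proteasome genes had 17 of 31 higher and none lower, with Psma7 going from 56.8 to 110 RPKM and from 60.0 to 97.3 RPKM.

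Glycolysis genes rose modestly, 11 of 22 higher and 4 lower. Aldoa, aldolase A, went from 435 to 688 RPKM and from 384 to 504 RPKM, and Pgk1, phosphoglycerate kinase, from 504 to 737 RPKM and from 478 to 668 RPKM. The glucose transporters moved in opposite directions, Slc2a1 by 0.37 ± 0.08 (log2, SE, adjusted p = 0.012, and 0.057 without cycle 2 of experiment 1) and Slc2a3 by -0.58 ± 0.08 (SE, adjusted p = 0.0017). HIF-1 targets had 5 of 19 higher (26.3%) and 3 lower (15.8%), against 19.5% and 27.9% of all tested genes. Fam162a rose by 0.76 ± 0.08 and Vegfa, the vascular growth factor, by 0.51 ± 0.09 (log2, SE), while Bnip3, a mitophagy receptor, stayed between 3.75 and 6.45 RPKM and was not called. Vegfa fell in DMSO from 21.1 to 12.9 RPKM and from 19.1 to 15.6 RPKM, and its courses differed by 0.98 ± 0.18 (log2, SE, adjusted p = 0.012). Of 16 cytosolic heat shock genes 7 were higher and 2 lower, with Hspa1b, an inducible HSP70, at 1.77 to 4.44 RPKM (log2 change 0.70 ± 0.13, SE).

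Mitosis genes fell with division in linezolid and not in DMSO. In DMSO 5 of 60 were called higher in cycle 4 and none lower, against 4.45% and 3.22% of all genes. In linezolid 55 of 60 tested genes were lower in cycle 4 than in cycle 2 and none was higher. That is 91.7% lower against 27.9% of all tested genes, with a median log2 change of -0.94. Cenpa, the centromeric histone, was at 190, 116 and 69.1 RPKM over cycles 2, 3 and 4 of experiment 1 and at 178, 148 and 98.6 RPKM in experiment 2. Ccnb1, encoding the mitotic cyclin B1, was at 85.9, 59.8 and 27.9 RPKM in experiment 1 and at 74.8, 73.7 and 53.4 RPKM in experiment 2. Both genes were lowest in cycle 4, and experiment 1 moved further. Their log2 changes were -1.15 ± 0.13 (SE, adjusted p = 0.00095) and -1.03 ± 0.22 (SE, adjusted p = 0.0086).

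The size of the fall differed between the experiments throughout the list. The median log2 change of the 60 genes from cycle 2 to cycle 4 was -1.41 in experiment 1, where all 60 were below 0, and -0.48 in experiment 2, where 56 were. Mki67, the proliferation marker Ki-67, was at 53, 38.7 and 19.2 RPKM in experiment 1 and at 63.2, 64.5 and 57.3 RPKM in experiment 2 (adjusted p = 0.039, and 0.070 without cycle 4 of experiment 1). Most of the fall was in the last step, whereas the list of naive genes changed by a median of -0.63 in the first step and -0.20 in the last. The mitosis median from cycle 2 to cycle 3 was -0.44 in experiment 1 and -0.09 in experiment 2, and from cycle 3 to cycle 4 it was -0.93 and -0.35, with all 60 genes below 0 in both experiments in that last step. None of the 60 was called in the last step itself after adjustment over all genes. Top2a, topoisomerase II alpha, was at 316, 329 and 186 RPKM in experiment 1 and at 283, 329 and 289 RPKM in experiment 2 and was not called.

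In DMSO the median change of the same 60 genes from cycle 2 to cycle 4 was 0.59 in experiment 1 and 0.45 in experiment 2, with 60 and 59 genes above 0. With Arg C it was -1.61 and -0.80. The linezolid course was lower than the DMSO course for 53 of the 60 genes, against 3.34% of all 11004 genes tested in that comparison. Without linezolid cycle 2 of experiment 1 this count was 11, and without cycle 4 of experiment 1 it was 12. The levels put this in context: the median RPKM of the 60 genes in linezolid was 40.8, 29.6 and 14.1 over cycles 2, 3 and 4 of experiment 1, against 5.64, 7.57 and 9.70 in DMSO. In experiment 2 it was 38.1, 35.6 and 27.5 against 8.97, 10.7 and 13.6. Linezolid was above DMSO for all 60 genes in cycle 2 of both experiments, and still for 49 and 58 of them in cycle 4.

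**Figure D4:**
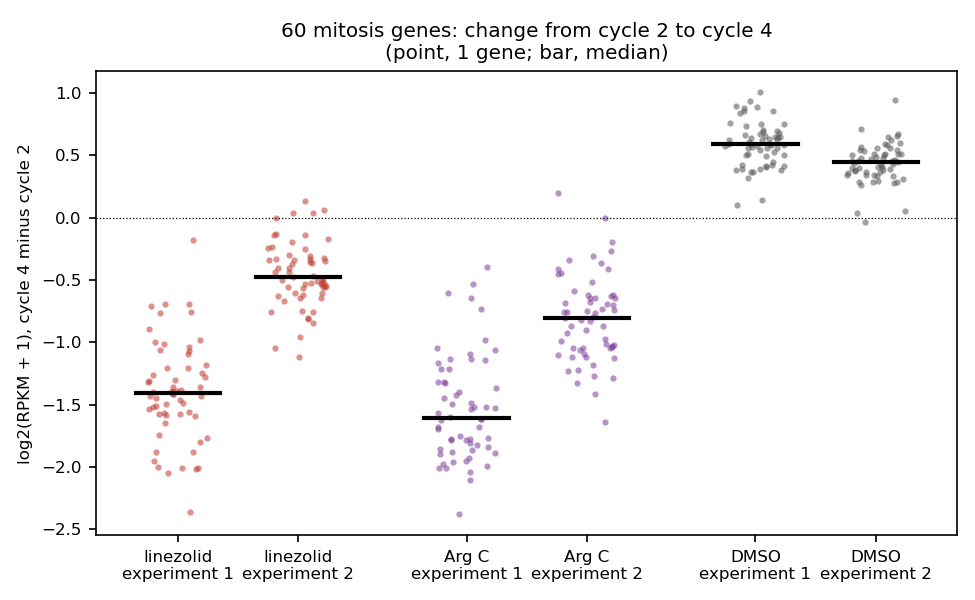
Change of 60 mitosis genes from cycle 2 to cycle 4 on the log2(RPKM + 1) scale, 1 point per gene, in each drug and experiment, with the median as a bar. The medians are -1.41 and -0.48 in linezolid, -1.61 and -0.80 in Arg C and 0.59 and 0.45 in DMSO.

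The 6 named genes whose linezolid course was lowest against DMSO include 3 of the mitosis list, Cdc25b, Troap and Ckap2. Cdc25b, the phosphatase that activates the mitotic kinase, fell from 53.6 to 12.2 RPKM and from 56.9 to 25.7 RPKM in linezolid and went from 14.8 to 19.4 RPKM and from 22.4 to 27.5 RPKM in DMSO (difference -1.91 ± 0.24, log2, SE, adjusted p = 0.0053). Troap, a spindle-associated protein, and Ckap2, a microtubule-associated protein, differed by -1.92 ± 0.34 (adjusted p = 0.012) and -1.90 ± 0.27 (adjusted p = 0.0059). Fam64a differed by -2.24 ± 0.32 (adjusted p = 0.0059), D17H6S56E-5 by -2.06 ± 0.37 (adjusted p = 0.012) and Arhgef39, a guanine nucleotide exchange factor, by -1.95 ± 0.29 (adjusted p = 0.0066), all on the log2 scale with SE. Each of these 6 genes fell in both linezolid experiments.

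Promoters of mitosis genes are known to carry CCAAT boxes bound by NF-Y and a cell cycle genes homology region (CHR, letters TTTGAA) bound by the DREAM and MuvB complexes. The windows of Mki67 and Cenpa are shown because both genes fell and hold both elements. Capitals mark either element on either strand, and no match overlaps another. Windows are from RefSeq, build GRCm38.p6, each read 5′ to 3′ along its gene. Mki67 lies on the minus strand at chr7:135716330-135716629 and Cenpa on the plus strand at chr5:30666636-30666935.
Mki67: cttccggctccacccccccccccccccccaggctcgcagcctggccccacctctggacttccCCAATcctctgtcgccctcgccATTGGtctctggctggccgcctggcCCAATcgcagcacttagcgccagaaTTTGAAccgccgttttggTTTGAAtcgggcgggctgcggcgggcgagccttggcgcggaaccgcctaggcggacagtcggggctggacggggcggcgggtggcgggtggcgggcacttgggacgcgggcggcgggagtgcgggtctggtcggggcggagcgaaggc
Cenpa: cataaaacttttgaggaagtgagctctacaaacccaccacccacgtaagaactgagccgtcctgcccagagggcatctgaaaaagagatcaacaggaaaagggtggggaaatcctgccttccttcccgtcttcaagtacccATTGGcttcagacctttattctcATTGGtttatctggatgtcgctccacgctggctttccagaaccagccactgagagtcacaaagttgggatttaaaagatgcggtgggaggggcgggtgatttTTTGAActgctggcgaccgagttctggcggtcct
The Mki67 window held 3 CCAAT and 2 TTTGAA matches, and the Cenpa window 2 and 1. Of 52 windows found for 49 of the 60 mitosis genes, 76.9% held TTTGAA and 80.8% held CCAAT. The shares in windows of all tested genes were 11.7% and 38.3%, of genes called higher 9.93% and 35.7%, and of genes called lower 14.4% and 41.4%. Of 375 windows of genes lower than the DMSO course 32% held TTTGAA and 55.5% CCAAT. The letters TTCCCGC or TTGGCGC or TTCGCGC, those of E2F sites, were in 15.4% of mitosis windows and 15.0% of all tested.

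DNA replication genes were split. Of 45 tested genes 5 were higher and 13 lower, 28.9% lower against 27.9% of all tested genes. Without cycle 4 of experiment 1 the counts were 13 higher and 4 lower, and without cycle 4 of experiment 2 they were 5 and 23. Rrm2, the small subunit of ribonucleotide reductase, fell from 45.9 to 13.8 RPKM and from 53.7 to 29.5 RPKM, and its course was lower than in DMSO (difference -1.45 ± 0.26, log2, SE, adjusted p = 0.012). Pold2, a subunit of DNA polymerase delta, rose from 14.0 to 19.7 RPKM and from 16.6 to 22.6 RPKM, and Dut, the enzyme that removes dUTP, by 0.38 ± 0.07 (log2, SE). Mcm5, of the replicative helicase, was at 30.1, 29.7 and 20.7 RPKM in experiment 1 and at 30.1, 31.9 and 29.8 RPKM in experiment 2 and was not called.

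More genes of cell cycle entry were lower than higher. Among 26 G1 cyclins, kinases and inhibitors 5 were higher (19.2%) and 12 lower (46.2%), against 19.5% and 27.9% of all tested genes. Cdkn1a, encoding the inhibitor p21, was at 50.2 to 73.9 RPKM without a call. It was called higher without cycle 2 of experiment 1 (log2 change 0.37, adjusted p = 0.0011) and without cycle 4 of experiment 1 (0.36, adjusted p = 0.0067), and was below 0 without cycle 2 or cycle 4 of experiment 2 (-0.13 and -0.11), so its sign differed between the experiments. Cdkn1b, encoding the inhibitor p27, fell slightly (log2 change -0.29 ± 0.08, SE, adjusted p = 0.019, and 0.16 without cycle 2 of experiment 1). Btg1 and Btg2, antiproliferative genes of resting lymphocytes, fell by 0.72 ± 0.08 and 0.65 ± 0.07 on the log2 scale, and Ccnd2, cyclin D2, by 0.54 ± 0.07. Of 19 p53 targets 7 were lower (36.8%) and none higher. Bcl2l1, the survival gene of BCL-XL, was the 1 of 15 BCL2 family genes that was higher (0.64 ± 0.09, log2, SE), with 6 lower (40%).

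Over all genes the linezolid course differed from the DMSO course for 593 of 11004 genes (5.39%), 226 higher (2.05%) and 367 lower (3.34%). Of the 367, 338 were also called lower within linezolid and 323 were not called in the DMSO course. Of the 226, 199 were called higher within linezolid and 171 were not called in DMSO. Without cycle 4 of experiment 1 the counts were 41 and 67, and without cycle 2 of experiment 1 they were 52 and 89. No gene was called between the linezolid and Arg C courses by limma (0 of 11004, 0.0%), where the smallest adjusted p was 0.69, and 714 genes had an unadjusted p under 0.05. limma-voom on recovered reads also called 0 in that comparison. That does not show that the 2 courses were alike. With Arg C Klf2 went from 44.9 to 6.95 RPKM and from 58.2 to 11.1 RPKM over cycles 2 to 4, and Asns from 17.6 to 42.6 RPKM and from 15.7 to 41.5 RPKM.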

How the data were processed

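RNA of sorted Th17 cells was sequenced in 54 libraries, of which the 18 linezolid libraries were used throughout and the DMSO and Arg C libraries for 2 comparisons. The authors deposited 1 table of 45802 genes and named no unit in it. For genes with 1 exon, 92.7% of values divided by a per-library step came out whole (within 0.01 of a read), so the deposited values were taken as RPKM. Read counts could be rebuilt in this way for 19284 genes. Per the submitters' processing notes, CASAVA was used and the build was GRCm38.p5. The sources used here do not state the aligner, the counting or the strand, so reads of overlapping and antisense genes cannot be told apart.

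Technical replicates were averaged, leaving n = 2 experiments per cycle. The fractions of an experiment come from 1 treatment each, and nothing says that the experiments used separate animals, so p-values measure the spread between these samples. Values on the scale log2(RPKM + 1) were fitted in limma 3.58.1 (R 4.3.3; lmFit, then eBayes with a trend) with cycle as a factor and experiment as a block (2 residual degrees of freedom), or a linear trend (3). Genes with at least 0.5 RPKM in 2 of 6 samples were tested. Calls are Benjamini-Hochberg adjusted p under 0.05 over all tested genes. Differences between drug courses are interaction terms over all 18 samples (8 residual degrees of freedom). On simulated data the cycle 4 against cycle 2 fit on 10229 genes found 30% of 50 genes changed 1.25-fold. It found 84% for 1.5-fold, 100% for 2-fold and 98% for 3-fold changes, and 10 genes without a change were called. Beside counting error, the simulation gave every gene the same spread, the median of the fit, with independent samples. Only 200 genes changed, each linearly over the cycles. In the measured data 47.5% of genes were called and fractions share a culture, so these rates need not hold there.

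Named genes are the 10 largest rises and falls that had one sign in both experiments and averaged 5 RPKM or more, 5 of each for single steps and for the DMSO comparison, up to 3 of smallest p from each of 39 gene lists, and a fixed set, of which some are not reported here. The members, lists and rules were chosen with earlier results of these data known. Alternatives were another pseudocount (0.1), filters, scaling, limma-voom, blocks and left-out libraries or samples.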

Additional observations from a re-analysis of the deposited data

Results flagged for a closer look

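The change from cycle 2 to cycle 4 differed between linezolid and DMSO, by the interaction term in limma at an adjusted p under 0.05, for 226 genes that were higher and 367 that were lower in the linezolid course. The named genes among them follow, each with the log2 difference of the 2 courses, linezolid minus DMSO.

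Lower in the linezolid course were Fam64a (-2.24), D17H6S56E-5 (-2.06) and Arhgef39 (-1.95), which are in no list, and the mitosis and DNA replication genes Troap (-1.92), Cdc25b (-1.91), Ckap2 (-1.90), Mki67 (-1.69), Ccnb1 (-1.67), Cenpa (-1.47) and Rrm2 (-1.45). Also lower were genes of naive T cells, antigen receptor, MHC and other lineages, namely Klf2 (-1.58), Cd27 (-1.20), Pglyrp1 (-1.15), H2-Q7 (-1.0), Cd7 (-0.90), Foxp3 (-0.83), Psmb9 (-0.72) and Cd247 (-0.69). Higher were genes of stress response, mitochondria, proteasome and growth, namely Srm (1.12), Hspa9 (0.94), Atp5g1 (0.90), Nme1 (0.88), Eif4ebp1 (0.87), Slc3a2 (0.79), Uqcrq (0.68), Mrps27 (0.66), Ndufa12 (0.62), Asns (0.59), Atf4 (0.57), Ddit3 (0.54), Tars (0.52), Psma7 (0.49), Tufm (0.48) and Hspd1 (0.43). The remaining higher genes were Mt2 (2.88), Mt1 (2.83), Nr4a1 (1.45), Vegfa (0.98), Timp1 (0.83), Il12rb1 (0.78), Fam162a (0.66), Lta (0.62) and Bcl2l1 (0.59). No group had more than 2 samples, so single samples were not examined for outliers. Of these 43 named differences, 26 lost the call without cycle 4 of experiment 1 and 20 without cycle 2 of experiment 1.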

How the results depend on the processing

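Counts of genes higher and lower in cycle 4 against cycle 2 stayed within 1.5 times of 1997 and 2859 under the other pseudocount, both other filters, median-ratio scaling, limma without trend, limma-voom, and the fit of all 18 samples, but the excess of lower genes was lost with median-ratio scaling (2460 and 2512) and limma-voom (2437 and 2452). Without the experiment block they were 135 and 92, the trend called 502 and 334, cycle 3 against cycle 2 called 0 and 0, and the comparison with the DMSO course called 0 and 0. Leaving out a library number or a sample gave 1452 to 2096 higher and 2200 to 3436 lower in cycle 4 against cycle 2, 103 to 1576 and 330 to 2935 in cycle 3 against cycle 2, 0 to 693 and 0 to 1016 in cycle 4 against cycle 3, 882 to 1723 and 1011 to 2581 in the trend, 41 to 291 and 67 to 725 against the DMSO course, and 0 against the Arg C course. The lowest cycle 3 counts were without linezolid cycle 3 of experiment 1. Where a cycle keeps 1 sample, it is assumed to vary like the others.

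For cycle 3 against cycle 2, no filter gave 315 and 728, limma-voom 1359 and 1290, median-ratio scaling 1332 and 1317, and the fit of all 18 samples 578 and 816. For cycle 4 against cycle 3 the 3 lower genes became 0 with a pseudocount of 0.1, no filter, no trend, no experiment block or the fit of 18 samples. Experiment 1 alone called 1117 genes with a rising and 2212 with a falling trend, and experiment 2 alone 1108 rising and 1241 falling. The DMSO comparison on the 12 samples of both drugs alone called 72 and 145, and the Arg C comparison without a filter called 1 gene lower.

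The labels number the technical replicates. Same-numbered libraries of an experiment share a prefix in their sample ids, and the prefixes of experiments 1 and 2 differ. Deviations of same-numbered libraries from their sample means correlated at -0.02 to 0.04 within an experiment, so they had little deviation in common. With each library as its own sample the counts were 3173 and 4206 (cycle 4 against 2), 2270 and 3930 (3 against 2), 2136 and 1600 (4 against 3), 3053 and 4034 (trend), 1845 and 3135 (DMSO) and 538 and 1311 (Arg C). With the replicate block added they were 3133 and 4156, 2221 and 3857, 2044 and 1515, 3017 and 3972, 1821 and 3085, and 514 and 1274. These fits count technical replicates as samples, so their spread is too small.

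Of the named genes, the sign of 5 that were not called turned in some settings. Cd44 was at 0.024 with median-ratio scaling and 0.026 with limma-voom. Leaving out a sample or library number, the log2 change ranged from -0.16 to 0.076 for Cd44, -0.44 to 0.026 for Il10, -0.019 to 0.16 for Il2ra, -0.13 to 0.37 for Cdkn1a and -0.35 to 0.0055 for Bnip3, the ends being the fits without cycle 2 of experiment 1 or 2. No called gene turned.

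Without the experiment block 58 named genes lost their call from cycle 2 to cycle 4. Leaving out a sample or library number, Mki67 lost it without cycle 4 of experiment 1 (adjusted p = 0.070), and Cdkn1b and Slc2a1 without cycle 2 of experiment 1 (0.16 and 0.057). In the other settings those that lost it were Lars2 in the trend fit (0.17), Lars2, Ccnb1, Mki67, Cdkn1b and Foxp3 without a filter (0.082, 0.063, 0.16, 0.063 and 0.060), Mki67 with median-ratio scaling (0.051), and Ccnd2, Cdkn1b, Rnr2, Hspa1b and Slc2a3 in the fit of 18 samples (0.13, 0.34, 0.29, 0.23 and 0.055). Samples held 27.7 M to 36.9 M reads, and how much counting error adds to the spread between the 2 experiments was not tested.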

Other observations

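Counts of other metabolic lists from cycle 2 to cycle 4 in linezolid follow, to be read against 19.5% higher and 27.9% lower of all tested genes. Antioxidant and glutathione genes had 11 of 21 higher in cycle 4 than in cycle 2 and none lower, with a median log2 change of 0.25. The 11 include the thioredoxins, several peroxiredoxins and heme oxygenase. Citric acid cycle genes had 13 of 25 higher and 4 lower (median 0.20), and purine and pyrimidine synthesis genes 11 of 21 higher and 2 lower (median 0.30). Amino acid transporters had 4 of 12 higher and none lower (median 0.15, and -0.014 to 0.27 with a sample or library number left out).

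Cholesterol synthesis genes had 7 of 23 higher (30.4%) and 3 lower (13.0%), with a median of 0.03. Fatty acid synthesis and oxidation was near the shares of all tested genes, with 3 of 20 higher (15%) and 6 lower (30%, median 0.06). Replication-dependent histone genes had 6 of 15 tested lower and none higher (median -0.25). Marker sums of cell types other than T helper cells stayed low in the 6 linezolid samples: 8.78 to 15.2 RPKM for 15 macrophage, monocyte and dendritic cell markers, 7.82 to 19.4 RPKM for 6 stroma markers, 4.80 to 8.81 RPKM for 2 CD8 T cell markers, 2.34 to 6.12 RPKM for 4 plasma cell markers and 2.19 to 6.34 RPKM for 6 NK cell markers. The CD8, stroma, B cell and macrophage, monocyte and dendritic cell sums were highest in cycle 2 of both experiments, beside the naive, cytotoxic and MHC genes that fell. Sums of NK cell, plasma cell and neutrophil markers went the other way and were highest in cycle 4 of both experiments. All these sums rest on few genes. A mean of at least 0.5 RPKM was reached by 1 of 6 NK cell, 1 of 4 plasma cell and 1 of 7 neutrophil markers. The same held for 1 of 6 stroma, 1 of 10 B cell and 1 of 2 CD8 T cell markers. Among macrophage, monocyte and dendritic cell markers it held for 2 of 15. A sum can therefore follow a single gene and does not measure a cell type. The NK cell sum was 2.19, 4.02 and 4.30 RPKM over cycles 2, 3 and 4 of experiment 1 and 4.93, 5.01 and 6.34 RPKM in experiment 2. The B cell sum over 10 markers was 1.32, 0.324 and 0.463 RPKM over cycles 2, 3 and 4 of experiment 1 and 2.26, 1.44 and 0.461 RPKM in experiment 2, and the macrophage, monocyte and dendritic cell sum was 15.2, 12.3 and 15.1 RPKM and 12.8, 8.78 and 10.8 RPKM. The part of these cells in the falls was not tested.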
